A study of Mus musculus with 8 samples.

Results

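Strong G9a binding sites of wild-type cells that were not called when G9a was put back into knockout cells are described here. The members were the wild-type G9a peaks with a score of at least 60 on chromosomes 2 to 7 and 9 to 19, with chromosome 11 taken only below 110 Mb of the mm9 genome, that overlapped no peak of the rescue list. There were 3408 such peaks, called absent peaks below, among 11675 strong peaks on these chromosomes and 67318 wild-type G9a peaks in all. The other 8267 strong peaks overlapped a rescue peak by at least 1 bp and are called restored. The series holds no G9a library from knockout cells without the rescue. Restored therefore means only that a peak was called in both lists, and its loss in the knockout was not measured. The members were selected on score, chromosome and rescue overlap, so these values are descriptions and carry no test. The score is the authors' own value, which MACS derives from the p of the peak on a negative log10 scale, so that a higher score is a stronger call.

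All libraries came from TT2 mouse embryonic stem cells, a line whose labels give a C57BL/6 female and a CBA male as its strain. G9a was profiled by ChIP-seq once in wild-type cells and once in G9a-/- GLP-/- cells rescued with wild-type G9a, with the same anti-G9a antibody. By their label the rescued cells still lacked GLP, and the labels do not say whether the rescue line was 1 clone. Ezh2 was profiled in 2 wild-type libraries, numbered 0 and 1, and in 1 library from G9a-/- GLP-/- cells. The title and description of the latter name the knockout, whereas the source name gives only the cell line. With 1 library in each G9a group there is no replicate check and no test between wild type and rescue. The peak lists hold no reads, so the depth is unknown, and absent means not called in the rescue list, whose lowest score is 20.

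G9a is a histone methyltransferase that acts on lysine 9 of histone H3, mostly adding mono- and dimethyl marks at silent genes in euchromatin. It works as a heterodimer with the related enzyme GLP, and in embryonic stem cells loss of either partner strongly reduces these marks. Ezh2 is the enzyme of Polycomb repressive complex 2 that places methyl marks on lysine 27 of the same histone.

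Absence from the rescue list followed the wild-type score closely. Among strong peaks 29.2% were absent, against 72.4% of the 41386 wild-type peaks scoring under 60 on the same chromosomes and 62.9% of all 53061 peaks there. From 60 to 70 the absent share was 45.5% (1021 of 2243; exact binomial 95% interval 43.4 to 47.6). It was 40.1% from 70 to 80, 35.2% from 80 to 100, 25.1% from 100 to 150 and 18.3% from 150 to 200. At scores of 200 and over 123 of 1907 peaks were absent (6.45%; 5.39 to 7.65). The intervals cover counting error only and treat peaks as independent. Absent peaks had a median score of 80.5 (quartiles 67.8 and 106), and restored peaks 111 (78.4 and 181).

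**Figure D1:**
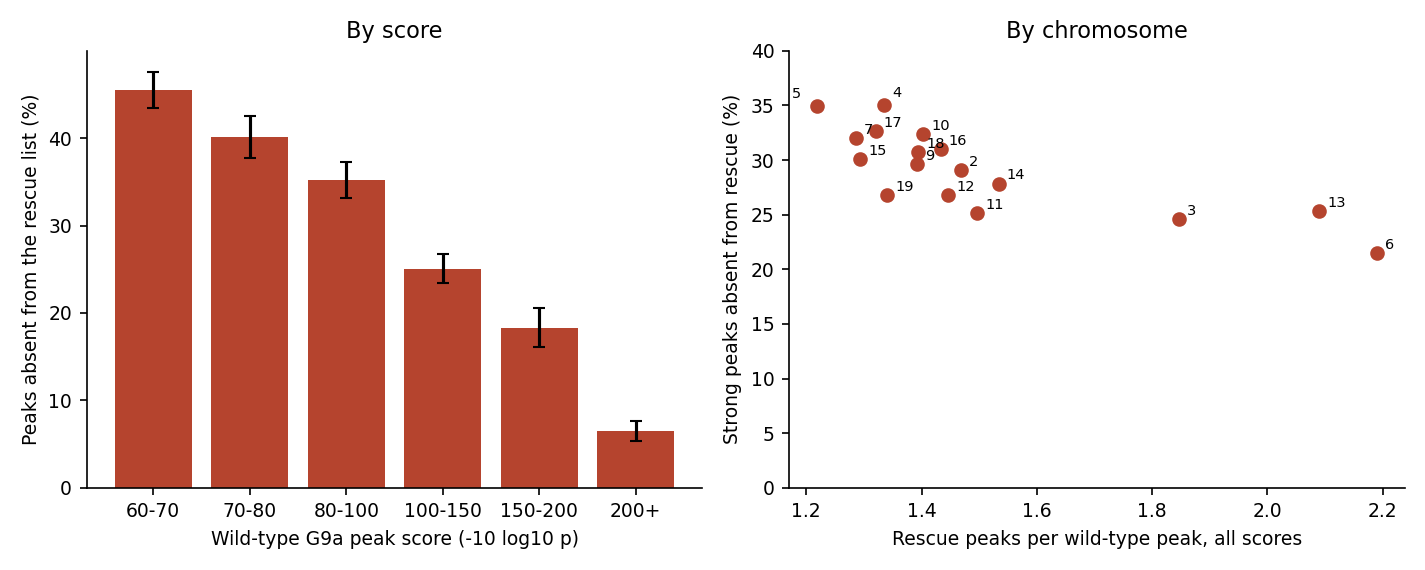
Left, the share of strong wild-type G9a peaks that overlap no rescue peak, in percent, in 6 groups of wild-type score, with exact binomial 95% intervals; it falls from 45.5% to 6.45%. Right, the same share on each of 17 chromosomes, marked by number, against the number of rescue peaks per wild-type peak there; chromosome 6 is lowest at 21.5% and chromosome 4 highest at 35.0%.

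The members reached down to the threshold and up to very strong peaks. The 3 lowest had scores of 60.04, 60.02 and 60, and the 3 highest-scoring unrestored peaks just below the threshold had 59.99, 59.98 and 59.98. On the overlap side, 9 members lay within 10 bp of a rescue peak, 1 of them touching it with no shared base. In the other direction 8 restored peaks shared fewer than 10 bp with rescue peaks, the least being 2 bp. Restored peaks shared a median of 746 bp, and 1.03% of them shared under 100 bp.

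The strongest absent peak stood far above the rest. It lay on chr4:127020979-127026698, was 5720 bp wide and scored 1048.65 in the wild type, while the nearest rescue peak was 8.41 kb away and scored 51.4. No Ezh2 peak of any list overlapped it, the nearest being 149 kb away in wild-type library 1. The restored peak of nearest score on that chromosome, chr4:98510805-98514950, scored 987.15 and overlapped a rescue peak scoring 94.02. Scores are comparable only within a list, so here and below a wild-type and a rescue score do not measure a change in binding.

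Next came chr16:29795137-29796610, with a score of 605.47. Its nearest rescue peak was 109 bp from its edge and scored 28.39, so it lay next to a weak call. Its restored counterpart, chr16:32511134-32514576, scored 590.02 and its rescue peak 99.43. The third, on chr10:60687160-60690464, scored 569.58 and had its nearest rescue peak 7.97 kb away at a score of 21.28. Its counterpart, chr10:44109725-44111694, scored 571.12 and its rescue peak 146.67.

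The fourth was on chr6:122417497-122421886 (score 554.92), 37.3 kb from the nearest rescue peak. It sat in the 10 Mb block from 120 Mb, where the rescue list had 2475 peaks against 458 in the wild type and 12 of 96 strong peaks were absent. A knockout Ezh2 peak lay 1.38 kb from it, while the nearest wild-type Ezh2 peak, in library 1, was 18.3 kb away. The fifth, on chr17:31942951-31944544 (548.74), lay 517 bp from a rescue peak scoring 60.09.

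The remaining 5 of the top 10 scored between 430 and 467 and lay 2.86 to 13.1 kb from a rescue peak. They were on chr10:75110242-75113928 (466.07) and chr9:68495356-68497823 (447.56). The others were on chr7:134366781-134368563 (444.27), on chr17:25527982-25530216 (442.51) and on chr4:132516151-132518585 (430.28). In all 28 absent peaks scored 300 or more, against 844 restored peaks. They were spread over 11 chromosomes, and 5 of the 28 lay within 1 kb of a rescue peak.

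Width was then compared between absent and restored peaks of like score and chromosome. Restored peaks were weighted so that their mix of chromosomes and of 6 score groups matched that of the absent peaks, and every absent peak had a restored peak in its group. Absent peaks had a median width of 1006 bp (quartiles 796 and 1320), and the weighted restored peaks 979 bp (777 and 1288). The medians differed by 27 bp. Without weighting the restored peaks had a median of 1147 bp, so that absent peaks were narrower by 141 bp. Absent peaks had the wider median on 12 chromosomes and the narrower on 5.

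Within single score groups, without weighting by chromosome, the medians stayed close. They were 869 bp for absent and 844.5 bp for restored peaks from 60 to 70, and 1028 and 998 bp from 80 to 100. At 200 and over they were 1783 and 1808 bp, with absent peaks the narrower.

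**Figure D2:**
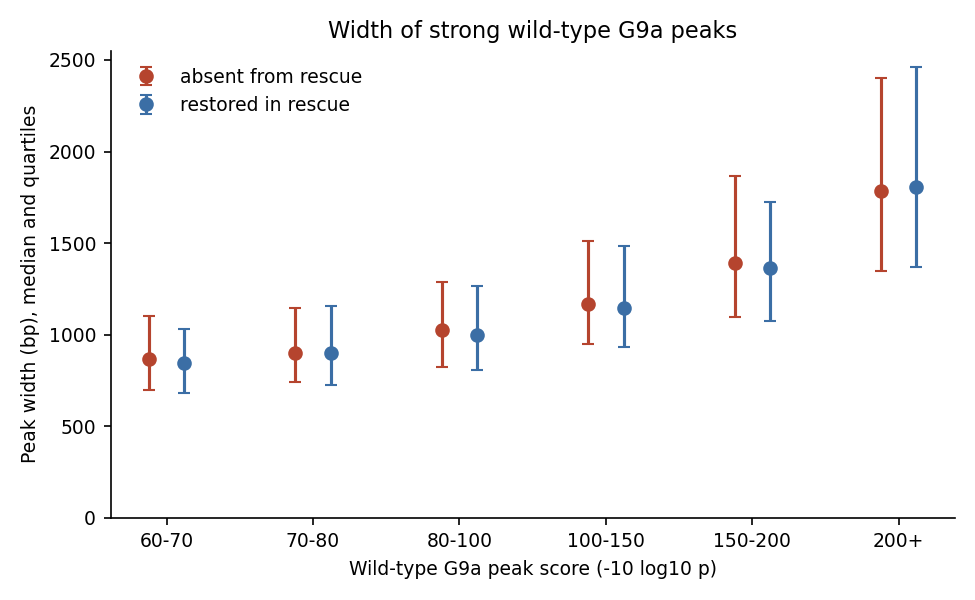
Width of strong wild-type G9a peaks in bp (points, medians; bars, lower to upper quartile) in 6 groups of wild-type score, for absent and restored peaks. The medians of both classes rise together, from 869 and 844.5 bp to 1783 and 1808 bp. Restored peaks are not weighted by chromosome here.

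The 5 widest members were not the 5 with the highest scores, although median width rose with score over the score groups. After the chromosome 4 peak of 5720 bp came 3 peaks on chromosome 11, which were chr11:100118847-100124558 (5712 bp, score 167.41), chr11:84519285-84524324 (5040 bp, 139.76) and chr11:61027829-61032596 (4768 bp, 121.52). Each of these had a rescue peak within 1 kb, at 217, 942 and 869 bp. The fifth was the chromosome 6 peak described above, at 4390 bp. Chromosome 11 had wider strong peaks than the other chromosomes of the rule, with a median of 1642 bp against 1023.5 to 1142 bp on the other 16. The absent peaks on it had a median of 1457.5 bp against 924 to 1037 bp.

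Most absent peaks had a rescue peak within 10 kb, and at the median it was farther away than the next rescue peak of a restored peak. The median distance from an absent peak to the nearest rescue peak was 3465 bp (quartiles 889 and 10484 bp). For restored peaks of like score and chromosome, the nearest rescue peak that did not overlap them was at a median of 2132 bp (564 and 7776 bp). Of the absent peaks, 909 (26.7%; exact binomial interval 25.2 to 28.2) had a rescue peak within 1 kb, against 35.2% of restored peaks. At the other end 887 (26.0%) had none within 10 kb, against 20.3% of restored peaks. Beyond 100 kb the order turned, with 9 absent peaks (0.264%) and 0.473% of restored peaks. The median distance of absent peaks showed no steady trend with wild-type score, being 3711 bp at 60 to 70 and 3595 bp at 200 and over. Between score groups it ran from 3161.5 bp at 100 to 150 to 4030 bp at 150 to 200. Restored and absent peaks differ in rescue overlap by the rule itself, so these distances only describe the classes.

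**Figure D3:**
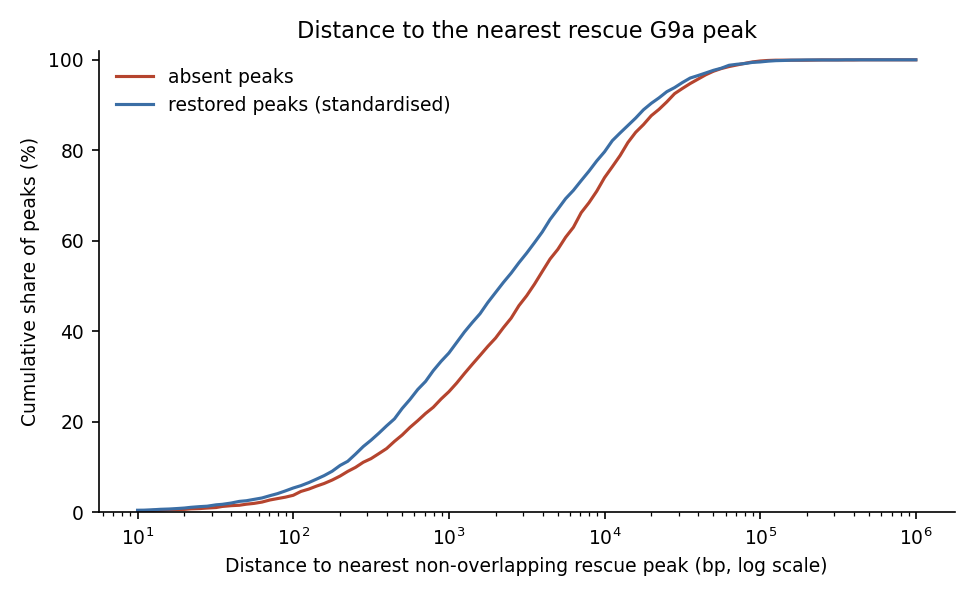
Cumulative share of peaks, in percent, by distance to the nearest rescue G9a peak that does not overlap them, in bp on a log axis, for absent peaks and for restored peaks weighted to the same chromosomes and scores. The curve of absent peaks lies to the right over most of its course, with 26.7% against 35.2% reached at 1 kb, and the curves meet below 100 kb.

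Rescue peaks beside absent peaks scored much like those beside restored peaks. Within 1 kb of an absent peak the nearest rescue peak had a median score of 29.9 (quartiles 23.9 and 43.3), against 30.3 (23.9 and 44.0) for the nearest non-overlapping rescue peak within 1 kb of a weighted restored peak. The highest-scoring rescue peak overlapping a weighted restored peak had a median score of 43.6 (29.7 and 72.1), a value that choosing the highest raises. The whole rescue list on these chromosomes had a median of 26.9. Of the weighted restored peaks, 25.7% rested on a rescue peak scoring under 30, close to the list's floor of 20. Within score groups, without weighting, that share was 27.3% at wild-type scores of 60 to 70 and highest at 70 to 80, at 33.7%. It then fell to 9.59% at 200 and over.

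Of the 5 absent peaks farthest from any rescue peak, all but the first scored under 80. The most isolated lay on chr18:18216874-18218016, 423 kb from the nearest rescue peak, and scored 159.66. The peak chr3:113027540-113028383 (score 61.1) was 246 kb away, and the peak chr13:88088805-88089480 (76.16) was 219 kb away. The peaks on chr5:26396823-26397628 (60.77) and on chr16:62570690-62571359 (69.66) were 118 and 115 kb away.

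Absent peaks lay where wild-type peaks were somewhat denser and rescue peaks sparser than around restored peaks. Within 100 kb of its midpoint an absent peak had a mean of 13.1 rescue peaks, against 15.3 around weighted restored peaks, leaving out rescue peaks that overlapped the peak itself. For other wild-type peaks the means were 13.8 and 12.5. Within 10 kb the means were 1.76 and 2.24 rescue peaks, and 2.35 and 2.19 wild-type peaks. Another wild-type peak lay within 10 kb of 81.2% of absent and 77.4% of restored peaks. When a rescue peak within 1 kb also counted as overlap, this last difference turned, to 77.8% and 79.3%. Without the blocks from 120 Mb on chromosome 6 and from 110 Mb on chromosome 13, where rescue peaks are in excess, the difference in rescue peaks within 100 kb shrank from -2.13 to -1.29. The rule used both G9a lists to define the classes, so these counts only describe them.

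**Figure D4:**
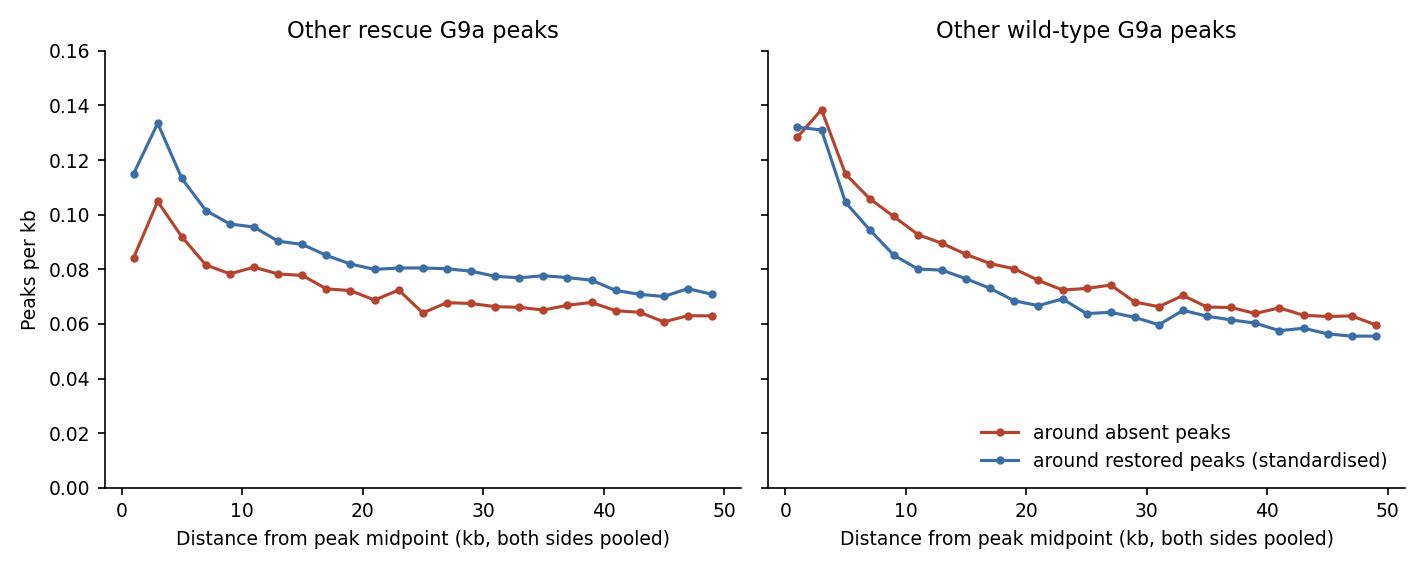
Mean number of other G9a peaks per kb, in 2 kb steps out to 50 kb from the peak midpoint with both sides pooled, for rescue peaks (left) and wild-type peaks (right). Around absent peaks rescue peaks are fewer at every step, and wild-type peaks are more numerous at every step but the first.

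The balance of the lists around a strong peak went with its absence. Strong peaks were split into 5 equal groups by the number of other rescue peaks per other wild-type peak within 1 Mb. In the group poorest in rescue peaks (median ratio 0.800) 41.2% were absent, and the shares then fell to 32.6%, 27.2%, 24.1% and, in the richest (median ratio 2.28), 20.9%. The median wild-type score was similar in all of them, from 97.7 to 99.2. Between chromosomes the order was looser. Chromosome 6 had 2.19 rescue peaks per wild-type peak and 21.5% absent strong peaks (158 of 736), and chromosome 5 had 1.22 and 34.9% (317 of 908). Chromosome 4 had the highest absent share, 35.0% (281 of 802), with a ratio of 1.34, and chromosome 19 had 26.8% (94 of 351) at the same ratio. The rescue list that gives this ratio also defines absence, so the shares only describe the groups. The part of this local balance in the absences was not tested.

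Strong peaks near an absent peak were absent more often than those near a restored peak. Of the strong neighbours within 100 kb of an absent peak, 35.0% were absent too, against 28.1% of those around weighted restored peaks. Within 10 kb the shares were 37.97% and 26.3%, and within 1 Mb 33.6% and 30.1%. Neighbours were classed by the same rule as the members, so these shares only describe the classes. By peak position, 1967 absent peaks (57.7%) stood alone, with no other wild-type peak within 1 kb, and 56.9% of weighted restored peaks did. A further 682 (20.0%) belonged to a group of peaks joined at gaps of up to 1 kb in which another wild-type peak was restored. In the other 2726 cases, the lone peaks included, no wild-type peak of the group overlapped a rescue peak.

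Runs of neighbouring strong peaks that were all absent were mostly short. Among all strong peaks 29.2% were absent. The run counts expected from that share alone were not computed, so the run lengths only describe the members. The 3408 members fell into 2278 runs, of which 1562 held 1 peak and 236 held 3 or more. Only 29 of those 236 spans had no rescue peak at all, so rescue peaks were usually called between the absent ones. The longest runs had 10 members. One lay on chr16:93575122-94039455 and spanned 18 rescue peaks, the strongest scoring 196.27. The other, on chr10:74827287-75290944, held the sixth strongest absent peak and spanned 26 rescue peaks. Runs of 8 lay on chr2:30983382-31998398 (29 rescue peaks), on chr5:111867021-112266029 (16) and on chr11:107216628-107372842, where 22 wild-type peaks faced 1 rescue peak.

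That last run belonged to a stretch of chromosome 11 where rescue peaks were few altogether. Between 105 and 110 Mb the wild-type list had 289 peaks and the rescue list 80, and 39 of 59 strong peaks were absent (66.1%). Below 105 Mb the lists had 4727 and 7423 peaks, and 241 of 1056 strong peaks were absent (22.8%). The boundary at 105 Mb was chosen after these values were seen. The ratio of rescue to wild-type peaks was also taken in 655 windows of 2 Mb with at least 30 wild-type peaks. These windows covered only the chromosomes of the rule, with chromosome 11 below 110 Mb. Among them the lowest ratios were 0.205 from 106 Mb and 0.217 from 108 Mb on chromosome 11. The next lowest was 0.469, on chromosome 4 from 152 Mb, and the median was 1.36. Rescue peaks were also relatively few outside the rule, so this ranking does not extend to the whole lists. The rule's part of the genome held 79714 of the 83721 rescue peaks but 53061 of the 67318 wild-type peaks. In the 5 Mb stretch the median absent peak was 15.97 kb from a rescue peak.

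Over 193 blocks of 10 Mb with at least 20 strong peaks none had all of them absent. The absent share ran from 6.45% to 53.2%, with a median of 28.0%. The highest was on chromosome 17 from 40 Mb, where 42 of 79 strong peaks were absent, against 23.8 if each score group had its pooled absent share. On chromosome 4 from 130 Mb it was 54 of 110, against 32.6. The lowest was on chromosome 13 from 110 Mb, with 4 of 62 absent, where the rescue list had 2108 peaks and the wild type 312.

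Ezh2 was called less often at absent than at restored peaks. A peak of either wild-type Ezh2 list overlapped 52 of the 3408 absent peaks (1.53%; exact binomial 95% interval 1.14 to 2.00), against 2.96% of restored peaks of like score and chromosome and 2.36% of all wild-type G9a peaks on these chromosomes. The difference was -1.43 percentage points. Nearly all of it came from library 1, with 49 absent peaks (1.44%; 1.07 to 1.90) against 2.93% of restored peaks and 2.33% of all wild-type G9a peaks. Library 0 overlapped 8 absent peaks (0.235%; 0.101 to 0.462) against 0.466%, with a background of 0.437% of all wild-type G9a peaks. Library 1 was the longer list, with 11766 peaks against 5425 in library 0. Its lowest score was 30 against 43.02, and its peaks were wider, with a median of 720 bp against 467 bp. The knockout list had a lowest score of 43.03 and a median width of 368 bp. The part of these unlike lists in the overlap shares was not tested. As a ratio, the restored share was 2.04 times the absent share in library 1 and 1.98 times in library 0. The series' design text gives pooled wild-type inputs as the control of the Ezh2 and G9a samples, so the lists are not independent.

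The direction was the same on most chromosomes and in each score group. Absent peaks had the lower share on 13 chromosomes and the higher on 4, at few peaks each. The shares within score groups were not weighted by chromosome. At wild-type scores of 60 to 70 the shares were 1.27% of absent and 3.76% of restored peaks (13 and 46 peaks). From 150 to 200 they were 2.28% and 2.66% (5 and 26), and at 200 and over 0.813% and 2.97% (1 and 53). With a minimum score of 100 the weighted difference shrank to -0.650 points, with 2.02% of absent and 2.67% of weighted restored peaks.

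**Figure D5:**
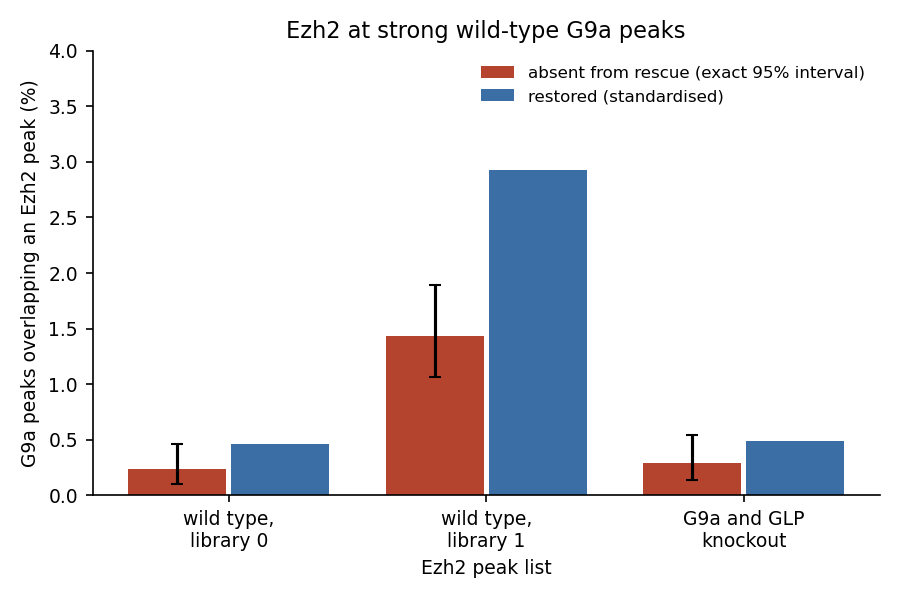
Share of strong wild-type G9a peaks, in percent, that overlap an Ezh2 peak of each list, for absent peaks with exact binomial 95% intervals and for restored peaks weighted to the same chromosomes and scores. In wild-type library 1 the shares are 1.44% and 2.93%, and in the knockout 0.293% and 0.486%.

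With windows wider than 1 kb the difference was smaller or turned. Within 1 kb a library 1 peak was found at 2.52% of absent and 4.23% of restored peaks, but within 10 kb the shares were 10.4% and 11.1% and within 100 kb 56.3% and 54.1%. For library 0 the shares were 0.499% and 0.992% within 1 kb, 3.02% and 2.94% within 10 kb, and 23.4% and 21.5% within 100 kb. In the Ezh2 list of cells lacking G9a and GLP, 10 absent peaks held a peak (0.293%; 0.141 to 0.539), against 0.486% of restored peaks, which lies inside that interval, and 0.443% of all wild-type G9a peaks. Absent peaks had the higher share with a knockout Ezh2 peak within 10 kb (4.40% against 3.70%) and within 100 kb (32.9% against 27.4%). Of the 52 absent peaks with wild-type Ezh2, 3 also held knockout Ezh2, and 7 other absent peaks held it in the knockout alone.

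Absent peaks with Ezh2 in both wild-type libraries numbered 5, or 0.147% (0.0477 to 0.342) against 0.439% of restored peaks. The share of all wild-type G9a peaks with Ezh2 in both libraries was not taken. The strongest of the 5 was on chr13:52011405-52013075 (score 104.38), 1.30 kb from a rescue peak and without knockout Ezh2. The next, on chr11:43648305-43649663 (95.51), lay 25.8 kb from a rescue peak and held Ezh2 in all 3 lists. So did the peak on chr18:80908380-80909201 (61.22), 7.14 kb from a rescue peak. The peaks on chr17:88145944-88146917 (84.07) and on chr13:97960107-97961233 (64.8) held no knockout Ezh2 and lay 15.996 kb and 442 bp from a rescue peak. The 52 absent peaks with wild-type Ezh2 scored between 60.4 and 216 and had a median width of 1070 bp.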

How the data were processed

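The data were the deposited peak lists of 5 ChIP-seq libraries, grouped by their titles; the 3 input libraries were not analysed here. Per the submitters' processing notes the tools were Bowtie 0.12.7 and MACS 1.4 and the build mm9. Per the labels' protocols cells were fixed with formaldehyde, after a protein crosslinker for G9a. The deposited score of each peak is the authors' own value and is comparable only within a list. The series' design text names pooled wild-type inputs as control for G9a without saying whether this covers the rescue, and the call thresholds are not stated there or in the labels. The lists hold no reads, so no interval for depth was given.

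Overlap meant at least 1 bp. Distances between peaks ran edge to edge, and counts within a distance used midpoints. Restored peaks were weighted to the absent peaks over chromosome and 6 score groups (from 60, 70, 80, 100, 150 and 200), and medians were weighted. Exact Clopper-Pearson intervals treat peaks as independent. No test between groups was run. Regions were named by fixed rules: the 10 highest scores, the 5 widest, the 5 farthest from a rescue peak, the 5 longest runs, the 5 highest scores with Ezh2 in both wild-type lists, the 3 on each side of the score threshold, and restored counterparts of the top 3. Members, rules and measures were chosen with earlier results of these data known. No genome or annotation of the mm9 build was used here, so no sequence was read and no gene was assigned. Python 3.11.15, numpy 2.4.6, pandas 2.3.3, scipy 1.17.1 and matplotlib 3.10.9 were used, and the procedures were tested on simulated data. Positions are 1-based.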

Additional observations from a re-analysis of the deposited data

How the results depend on the processing

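The directions of the rescue density, neighbour and Ezh2 differences held in all 18, 18 and 20 alternatives counted here. The Ezh2 alternatives counted used no window wider than 1 kb. With wider windows that difference turned, within 10 kb for library 0 and the knockout list and within 100 kb for all 3 lists. The rescue density and neighbour measures use the rescue list that defines the classes, so their steady direction is not independent support. The width difference of 27 bp reversed without weighting (-141 bp) and when wild-type peaks within 1 kb were merged (-136 bp); it was 46 bp when a rescue peak within 1 kb counted as overlap, 112 bp by midpoint, 62 bp on whole chromosomes 1 to 19 and 50 bp with rescue peaks scoring 30 or more. The absent share, 29.2%, was 33.8%, 22.2% and 17.4% at minimum scores of 50, 80 and 100, 31.7% with overlap of at least 50% of the shorter peak, 21.4% with the 1 kb allowance, 43.1% by midpoint, 36.3% on chromosomes 1 to 19, 44.2% with rescue peaks of 30 or more and 25.3% after merging. The median distance (3473 bp as the mean of the middle values, 3465 bp as the lower of them) was 6402 bp with the 1 kb allowance, 954 bp by midpoint, 6295 bp on chromosomes 1 to 19, 9484.5 bp with rescue peaks of 30 or more and 5251 bp after merging. The difference in rescue peaks within 100 kb was -3.35 with the 1 kb allowance, -1.37 with rescue peaks of 30 or more and -1.29 without the blocks on chromosomes 6 and 13, and within 10 kb and 1 Mb it was -0.476 and -9.07. The clustering difference of 3.75 points was -1.55 with the 1 kb allowance, 5.26 by midpoint, 1.37 unweighted, 5.18 with rescue peaks of 30 or more, and 1.85 and 1.74 within 5 and 50 kb. The neighbour difference of 6.94 points was 5.87 and 8.36 at minimum scores of 50 and 100, 9.45 with the 1 kb allowance, 10.1 on chromosomes 1 to 19, 4.48 after merging, and 11.7 and 3.46 within 10 kb and 1 Mb. The Ezh2 difference of -1.43 points was -0.719 and -0.650 at minimum scores of 80 and 100, -1.97 with rescue peaks of 30 or more and -0.192 with the knockout list; with 1 wild-type Ezh2 library left out it was -1.49 to -0.231. Leaving out single chromosomes gave 24 to 35 bp for width and -1.57 to -1.27 points for Ezh2. The block, merging and chromosome 11 alternatives were chosen after seeing the data. The cause of these shifts was not tested, except that wider allowances, the midpoint and stricter lists redefine the members. No paired analysis was possible because each G9a group has 1 library and the groups share fewer than 2 replicate numbers.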

Other observations

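Chromosomes 1 and 8 lie outside the rule. Their strong wild-type G9a peaks were absent from the rescue list in 64.6% (1077 of 1667) and 65.1% (671 of 1030) of cases, and had median widths of 1504 and 1487.5 bp. Chromosome 11, with 1642 bp, was the third chromosome with wide strong peaks, and 25.1% of those below 110 Mb were absent.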
